A study of Drosophila melanogaster with 64 samples.

Results

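Testes of larvae late in the third instar (L3) of Drosophila melanogaster were compared between BM21, a fertile line with a reciprocal translocation of the X and chromosome 2, and the irradiated parental stock that served as its control. The comparison took the 4 BM21 and the 4 parental L3 libraries by their titles, 8 of the 64 libraries of the series, and 12071 of the 17606 genes in the count table had enough counts to be tested. The series covers 8 lines at 2 stages with 4 pools of testes each, and poly(A) RNA was counted per gene as reads. BM21 males carried T(1;2)BM21 together with the duplication Dp(1;1)scV1 and the marker alleles y2, y+, sc+, scV1 and su(wa), with wa, cv, v and f. Parental males carried Dp(1;1)scV1 with those same markers and no translocation, so both groups share a marked, duplicated X. Both stocks were kept with compound-X C(1)M4, y females. Each L3 pool held 15 testes, taken just after the larvae stopped moving and freed of fat body with papain and collagenase. BM21 is a single translocation line, so the line and its translocation cannot be told apart here.

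The larval testis holds germline stem cells and dividing spermatogonia at its tip, where somatic hub cells signal to them, and a growing mass of primary spermatocytes wrapped by somatic cyst cells. Spermatocytes switch on a large set of testis genes through testis-specific TAFs and the tMAC complex, while the piRNA pathway silences transposons and repeats in the germline. Translocations between the X and an autosome are classically associated with male sterility in Drosophila, and BM21 is labelled as a fertile one.

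Depth was 10458575 to 18575476 counts in the BM21 libraries, against 8961413 to 14845562 in the parental ones. Germline and somatic markers were present in both groups. Levels are in counts per 1000000 counts of a library, scaled between libraries (CPM). By mean ± SD (n = 4 each), vas, a germline RNA helicase, stood at 39.5 ± 7.94 in BM21 and 39.0 ± 3.65 in parental testes (adjusted p = 0.91). The spermatocyte regulator aly did not pass the test either (log2 change 0.08, adjusted p = 0.349). The cyst cell factor tj stood at 11.7 ± 1.40 in BM21 and 9.42 ± 1.12 in parental testes (adjusted p = 0.0733). Digestive enzyme genes of the gut and salivary gland glue genes were near absent, with summed levels of 0.278 to 2.06 and 0.159 to 0.395 CPM in BM21 and of 0.0667 to 0.544 and 0 to 0.156 CPM in parental testes. BM21 replicate 3 stood apart from the other 3 BM21 pools, with a chi-square statistic, divided by its degrees of freedom, of 16.7 to 33.6 against each of them, where the other pairs within a group gave 3.38 to 11.1. The 2 lines sat in different rows of the 96-well preparation plate, so plate row and line cannot be told apart. Nothing in the labels says that pools of a line came from separate crosses, so the p-values below measure the spread between pools, which may be technical. In whole testes, fewer cells of a type and less RNA per cell cannot be told apart. Counts are uncertain where a gene overlaps another annotated gene, which holds for at least these of the genes named below: bgcn, pum, mei-S332, Ppr-Y, aub, Panx, zuc, w, y, Fas3, ptc, Zasp52, Act57B, Pxn, Dcp-1, Cyp4p3, GstE13, Cdc6, EcR, Eip63E, ftz-f1, Jheh1, Jheh2, Jheh3, JhI-26, Idgf6, lncRNA:CR46414, CG8249, a (arc), rig, Cals, msl-3, lncRNA:roX1, asRNA:CR44030, sc, cv, su(w[a]), f and Liprin-gamma.

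A large share of the expressed genes differed between the lines, mostly by small amounts. Of the 12071 genes tested, 4206 (34.8%) had an adjusted p under 0.05 in edgeR's quasi-likelihood test, 2313 higher in BM21 (19.2%) and 1893 lower (15.7%). The median log2 change was 0.54 among the genes that rose and -0.36 among those that fell, beside 0.03 over all tested genes, and 2650 of the 4206 (63.0%) lay within 1.5-fold. Large changes were mostly increases: 590 of the genes that rose (25.5%) and 211 of those that fell (11.1%) changed more than 2-fold, and 118 rose but 8 fell by more than 8-fold. The 4 BM21 libraries did not overlap with the 4 parental ones at 3091 called genes (25.6% of those tested). Of these, 1709 were higher in BM21 and 1382 lower.

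Called changes past 2-fold were more frequent among genes of low level and among noncoding RNAs. At low counts small changes are hard to call, and the filter kept low genes with enough counts in 1 line alone. These shares therefore depend on detection as well as on the size of the changes. Noncoding and protein-coding genes were not matched by level. Among the 2630 genes averaging at least 100 CPM, 29.3% were called but 4 genes (0.152%) changed more than 2-fold. Among the 1256 genes under 1 CPM, 23.4% were called and 20.7% were both called and past 2-fold. Of 1286 noncoding RNA genes tested, 387 rose and 154 fell (42.1% called), with a median log2 change of 0.24, and 267 (20.8%) passed 2-fold. Of 10619 protein-coding genes, 1904 rose and 1718 fell (34.1% called), and 519 (4.89%) passed 2-fold.

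At the extreme were genes read in BM21 and without a single count in parental testes. There were 15 with at least 40 counts summed over BM21 (46 to 780) and none in the 4 parental L3 libraries, 10 noncoding RNAs and 5 protein-coding genes, and no gene met the same rule in the other direction. Pp1-Y1 (Y:9833-10786, plus strand), a Y-linked member of the protein phosphatase 1 family, had 10.98, 10.7, 17.4 and 15.5 CPM in BM21 replicates 1 to 4 and 0 in every parental library. The groups did not overlap, and against a floor of 3 counts over the parental group the gene was at least 220.5-fold higher in BM21 (adjusted p = 1.4e-08). Pp1-Y2, another Y-linked member of that family, averaged 22.4 ± 2.71 CPM in BM21 and 23.5 ± 3.36 CPM in parental testes (adjusted p = 0.616), and how reads were divided between similar copies is uncertain. Pp1-Y1 RNA was near absent from adult testes of both lines, with 0 CPM in BM21 and 0.0272 CPM in the parental stock. Across the other L3 testes it averaged 7.62 CPM in fertile BM4, and 0 to 11.1 CPM in the 5 sterile lines.

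The receptor gene mthl8 (3L:22428-26308, plus strand), of the methuselah-like family of G protein-coupled receptors, had 4.72, 3.96, 4.51 and 5.24 CPM in BM21 and 0 in all 4 parental libraries, at least 74.6-fold higher. It was shared with the other fertile translocation: BM4 averaged 9.46 CPM, while the sterile lines averaged 0 to 0.0170 CPM. CG8960 (3L:2197013-2198089, plus strand) had 5.14, 4.44, 5.05 and 1.68 CPM in BM21 and none in parental testes, at least 71.0-fold higher, with BM21 replicate 4 well under the others. BM4 averaged 10.2 CPM of it and the sterile lines 0.0155 to 4.45 CPM. The long noncoding RNA lncRNA:CR43652 (3L:13081299-13082652, minus strand) had 5.07, 4.23, 4.85 and 7.70 CPM in BM21 and none in parental testes, at least 86.0-fold higher. Unlike mthl8, it was read in each translocation line, with 3.65 CPM in BM4 and 1.65 to 5.31 CPM over the sterile lines. The adult libraries, which the larval comparison did not use, repeated the presence of most of these genes: 12 of the 15 were called higher in adult BM21 testes, beside 19.6% of all genes tested in adults called in either direction, and 8 of the 15 had no count in adult parental testes either.

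Other large increases started from a trace in the parental stock. Cp15 (3L:8728481-8729066, plus strand), which encodes a chorion protein of the eggshell, had 7.09, 6.29, 5.11 and 4.74 CPM in BM21, against 0.112, 0, 0 and 0.0777 CPM in parental testes. With 346 counts in BM21 and 2 in the parental group, the ratio was 147 (95% interval 40.3 to 1217, counting error only). It was low in the parental stock alone: BM4 averaged 4.27 CPM and the sterile lines 4.22 to 5.90 CPM. The protein-coding gene CG8100 (3L:14083615-14086421, plus strand) had 30.4, 33.3, 25.6 and 37.5 CPM in BM21, against 0.673, 0.228, 0.334 and 0.156 CPM in parental testes. Every BM21 pool lay far above every parental pool (log2 change 6.58 ± 0.33 SE, adjusted p = 1.6e-16), while its flanking genes btl (0.42, adjusted p = 0.512) and Fbp1 (-1.07, adjusted p = 0.146) did not pass the test. CG44355 (3L:12310805-12311961, plus strand) had 29.3, 28.8, 30.1 and 34.1 CPM in BM21, against 0.112, 0.228, 0.534 and 0.933 CPM in parental testes (log2 change 5.97 ± 0.17, adjusted p = 2.41e-23). The noncoding lncRNA:CR46414 (3L:11598012-11598821, plus strand) had 18.6, 13.7, 20.1 and 21.2 CPM in BM21, against 0.112, 0.152, 0.0667 and 0 CPM in parental testes (7.70 ± 0.38, adjusted p = 9.58e-16). CG8100, CG44355 and lncRNA:CR46414 were not among the genes, described below, that passed a 2-fold difference against all 7 other lines. Their changes are therefore given against the parental stock only. The plot of the largest changes shows these genes by library.

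**Figure D1:**
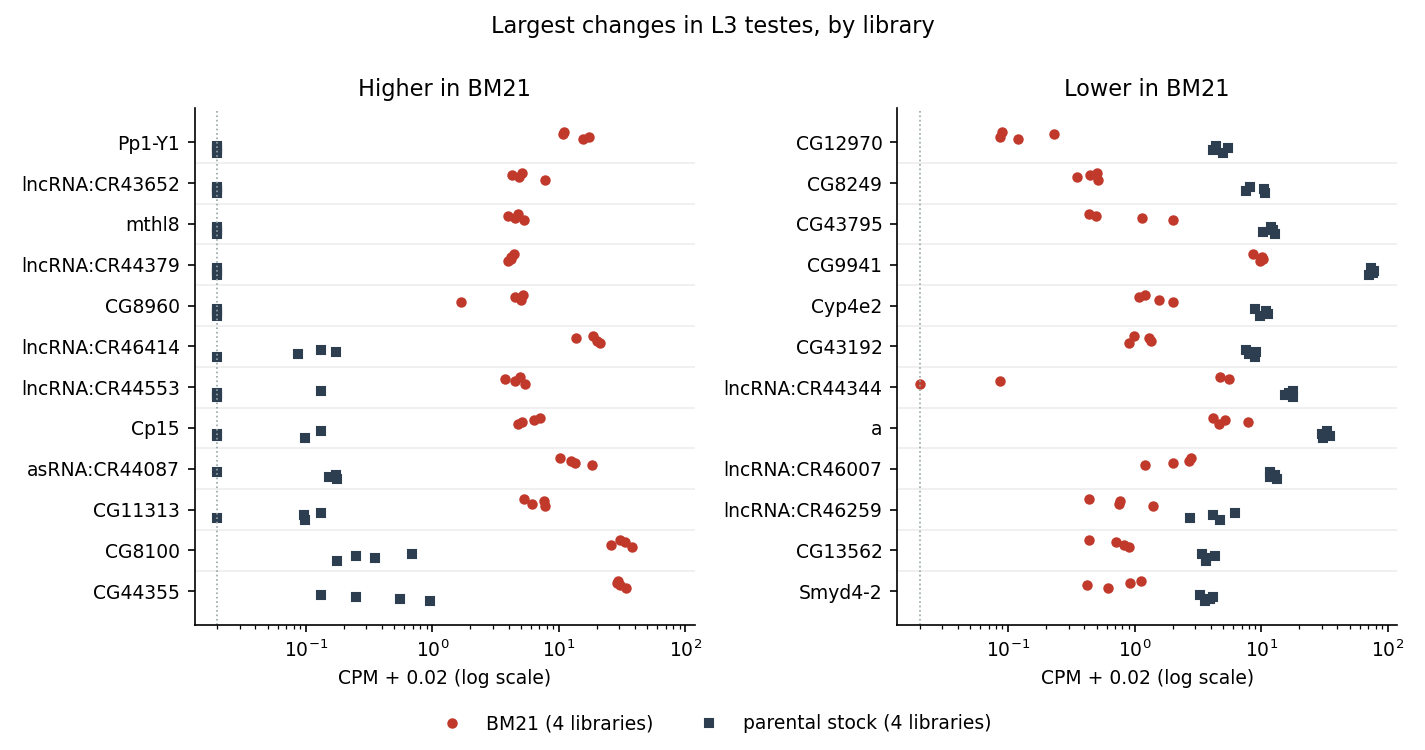
CPM plus 0.02 on a log axis in each L3 library, for the 12 largest increases (left panel) and the 12 largest decreases (right panel) among called genes whose log2 CPM averaged 1 or more and whose groups did not overlap; circles are the 4 BM21 libraries, squares the 4 parental ones, and the dotted line marks 0 CPM. Parental values of Pp1-Y1, lncRNA:CR43652, mthl8, lncRNA:CR44379 and CG8960 all sit at 0, and the BM21 values of lncRNA:CR44344 split into a pair near 5 CPM and a pair near 0.

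The largest decreases were in 2 protein-coding genes next to each other on 2R. CG12970 (2R:15855961-15857522, plus strand) had 0.0695, 0.211, 0.0664 and 0.0988 CPM in BM21, against 4.38, 5.39, 4.14 and 4.98 CPM in parental testes (log2 change -5.22 ± 0.33 SE, adjusted p = 5.66e-14). CG8249 (2R:15842760-15847362, minus strand), 8599 bp away, had 0.486, 0.423, 0.332 and 0.494 CPM in BM21, against 8.19, 10.4, 7.61 and 10.7 CPM in parental testes (-4.41 ± 0.26, adjusted p = 6.33e-15). The next tested gene, 7705 bp further, is Poxn (2R:15826693-15835055, minus strand), a paired-domain transcription factor of chemosensory organs, and it changed the opposite way. It had 3.27, 2.91, 2.59 and 3.75 CPM in BM21, against 0.112, 0.0760, 0.0667 and 0.0777 CPM in parental testes (5.14 ± 0.41, adjusted p = 1.22e-11). On the other flank, Gpo1, 230 bp from CG12970, had a log2 change of 0.42 (adjusted p = 0.124). In adult testes the 3 genes moved the same ways, with log2 changes of -6.69 for CG12970, -2.76 for CG8249 and 4.54 for Poxn (largest adjusted p = 9.11e-08). Of the 3, Poxn alone was among the genes, described below, that passed a 2-fold difference against all 7 other lines. CG12970 and CG8249 were not, so their changes are given against the parental stock only.

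Of the 12 largest decreases plotted, CG9941 (X:13718734-13721977, minus strand) had the highest level in parental testes. It had 8.61, 10.04, 10.4 and 9.68 CPM in BM21, against 73.5, 78.4, 77.0 and 71.5 CPM in parental testes (log2 change -2.95 ± 0.07, adjusted p = 1.68e-25). All 4 BM21 pools were far below the parental range. Its neighbour Nna1, 899 bp away, had a log2 change of 0.09 (adjusted p = 0.445), and mus101, 269 bp away on the other flank, one of -0.16 (adjusted p = 0.0498). Other large decreases were in Cyp4e2, a cytochrome P450 (1.44 ± 0.41 CPM in BM21 and 10.2 ± 1.12 CPM in parental testes, SD, n = 4 each, log2 change -2.89), and in a (arc), a PDZ protein of epithelial junctions (5.47 ± 1.67 CPM in BM21 and 32.3 ± 2.17 CPM in parental testes, -2.55). Smyd4-2, of the SET and MYND domain family, stood at 0.750 ± 0.317 CPM in BM21 and 3.72 ± 0.378 CPM in parental testes (-2.28, adjusted p = 1.09e-08). In lncRNA:CR44344 (2R:17386841-17389081) the BM21 pools were split, at 4.72, 5.55, 0.0664 and 0 CPM, against 17.7, 16.4, 15.4 and 17.7 CPM in parental testes (-2.56 ± 0.37, adjusted p = 1.97e-06).

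The translocation joins the X and chromosome 2, so the called genes were counted by chromosome arm. The X had a lower share of calls than the table as a whole (498 of 1888, 26.4%), and these were mainly increases, 380 higher and 118 lower. Changes past 2-fold made up 1.75% of X genes tested, and 6.23% to 9.28% on the 4 large autosome arms. Both arms of chromosome 2 had more decreases than increases, with 374 higher and 467 lower on 2L (35.9% of 2342 called) and 438 higher and 513 lower on 2R (40.3% of 2362 called). Chromosome 3 leaned the other way, with 511 higher and 400 lower on 3L (37.8% of 2413) and 561 higher and 387 lower on 3R (32.3% of 2931). Chromosome 4, the smallest, had the highest share, 41 higher and 5 lower of 87 (52.9%), and the Y had 7 higher and 3 lower of 22 (45.5%). None of the 17 mitochondrial genes tested was called.

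**Figure D2:**
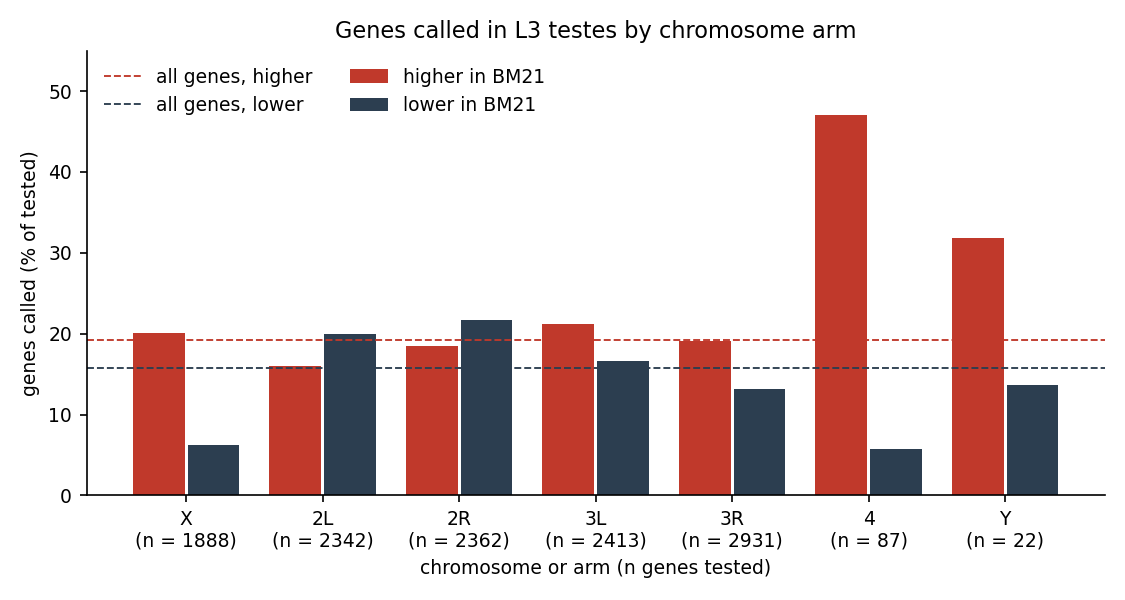
Genes called higher (left bar) and lower (right bar) in BM21 as a percent of genes tested, by chromosome or arm, with the shares over all genes as dashed lines. On the X 20.1% were higher and 6.25% lower; on chromosome 4, 47.1% were higher and 5.75% lower.

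In each library, the level of an arm was its average log2 CPM over tested genes, less the average over genes on both arms of chromosome 3. Chromosome 3 itself had more increases than decreases, so each difference is relative to that reference. A lower level of 2L or 2R and a higher level of chromosome 3 cannot be told apart by it. For 2L it was 0.0080, 0.0165, 0.0092 and 0.0230 in BM21, against 0.0666, 0.0644, 0.0662 and 0.0825 in parental testes, with no overlap (difference -0.0558, exact two-sided permutation p = 0.0286, adjusted over 5 arms 0.0357). For 2R it was 0.0695, 0.0744, 0.0617 and 0.0690 in BM21, against 0.119, 0.116, 0.123 and 0.115 in parental testes (-0.0497, exact permutation p = 0.0286, adjusted 0.0357). With the median over genes in place of the mean these differences were 0.0163 for 2L and -0.0186 for 2R, neither of which passed (adjusted p = 0.343 for both). The X differed by -0.0104 (exact permutation p = 0.2), and by 0.059 among genes averaging 3 or more in log2 CPM (adjusted p = 0.0357). Chromosome 4 was higher by 0.251 and the Y by 0.272, both with an exact permutation p of 0.0286 (adjusted 0.0357), the smallest that 4 against 4 libraries can give. The Y level averages 22 genes, among them Pp1-Y1, at 0 CPM in parental testes and 13.7 CPM on average in BM21. A change of that size weighs heavily in so small an average, and the Y difference without Pp1-Y1 was not tested. The chromosome 4 difference was 0.231 to 0.268 when any BM21 library was left out (adjusted p = 0.0714 each), and the Y difference was 0.245 without parental replicate 2 (adjusted p = 0.0714) and 0.157 among genes averaging 3 or more in log2 CPM (adjusted p = 0.229). With the median over genes the differences were 0.653 for chromosome 4 and 0.628 for the Y, and neither passed (adjusted p = 0.0714 for both). Their exact permutation p was again 0.0286, the smallest possible, so with the p-values of the other arms neither could pass.

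Called genes were spread along the arms rather than gathered in one block. In windows of 1 Mb with at least 20 tested genes, the share called ran from 24.5% to 52.9% on 2L, from 29.5% to 52.7% on 2R and from 12.5% to 37.5% on the X. The 5 windows with the highest shares were both windows of chromosome 4 (53% and 52.4%), 2L:20000001-21000000 (52.9% of 87 genes, 16 higher and 30 lower), 2R:20000001-21000000 (52.7% of 93, 23 higher and 26 lower) and 3L:14000001-15000000 (49.4% of 77, 22 higher and 16 lower). On chromosome 4, Mitf, a transcription factor of lysosome genes, had 25.8, 24.8, 25.1 and 25.0 CPM in BM21, against 12.01, 13.1, 14.2 and 14.4 CPM in parental testes (log2 change 0.90 ± 0.09, adjusted p = 1.82e-09). Every BM21 pool was above every parental pool, and adults showed a log2 change of 0.80 (adjusted p = 1.35e-07). On the same chromosome, Cals, which encodes calsyntenin, rose by 0.59, CG32006 by 2.07 and the antisense asRNA:CR44030 by 2.71, the last uncertain because it overlaps a gene on the other strand. In the 2R window, ppk6, of the degenerin sodium channel family, had 21.7, 16.8, 17.1 and 22.0 CPM in BM21, against 1.68, 1.67, 1.13 and 1.79 CPM in parental testes (3.64 ± 0.22, adjusted p = 2.24e-14). Nearby, rig, a cofactor of ecdysone receptor signalling, rose by 1.04 ± 0.08, and the lipase gene Hsl fell to 53.9 ± 9.05 CPM in BM21, against 97.1 ± 5.57 CPM in parental testes (SD, n = 4 each, log2 change -0.85, adjusted p = 2.28e-10).

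To see which changes set BM21 apart from the rest of the series and not from the parental stock alone, BM21 was also compared with each of the 7 other lines in L3; this comparison was chosen after the values were seen. A total of 35 genes (0.29% of 12071) passed an adjusted p of 0.05 and a 2-fold difference in the same direction against all 7, 21 higher and 14 lower in BM21. They lay on 2R (14), 3L (12), 3R (4), 2L (3) and the X (2). Of the 35, 4 averaged under 1 CPM in both BM21 and the parental stock. Of the 32 tested in adults, 25 were called the same way there between BM21 and the parental stock, and none was called the opposite way. Among all genes past 2-fold in L3 and tested in adults, 462 of 745 (62.0%) were called the same way. Of all adult genes, 19.6% were called in either direction.

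Among the 21 higher genes, lncRNA:CR43949 (3L:16020409-16021506, minus strand) had 4.79, 4.33, 2.59 and 2.96 CPM in BM21, against 0, 0, 0 and 0.0777 CPM in parental testes, and the 7 other lines averaged 0.0123 to 0.0445 CPM. CG4847 (2R:17511513-17513855, plus strand) had 4.38, 4.02, 3.05 and 3.95 CPM in BM21, against 0.225, 0.0760, 0 and 0.311 CPM in parental testes, and no other line averaged above 0.153 CPM. Poxn, described above, averaged 3.13 ± 0.50 CPM in BM21 (SD, n = 4) and 0.0548 to 0.369 CPM over the 7 other lines. Among the 21 were also rho, a protease that releases EGF receptor ligands (1.56 ± 0.61 CPM in BM21 and 0.188 to 0.332 CPM over the other lines), and Dlish, an adaptor of the Fat and Dachs growth pathway (7.88 ± 0.30 CPM in BM21 and 1.41 to 1.86 CPM over the other lines). The zinc transporter gene ZnT77C averaged 22.2 ± 3.62 CPM in BM21 and 5.75 to 10.02 CPM over the other lines, and FoxL1, a forkhead transcription factor, 1.05 ± 0.23 CPM in BM21 and 0.0836 to 0.520 CPM over the others.

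Among the 14 lower genes, CG9941 stood out by level, at 9.67 ± 0.76 CPM in BM21 and 65.5 to 77.5 CPM over the 7 other lines. Also lower were 2 cytochrome P450 genes, Cyp4e2 (1.44 ± 0.41 CPM in BM21 and 3.26 to 12.4 CPM over the other lines) and Cyp6a20 (0.315 ± 0.0852 CPM in BM21 and 1.26 to 2.095 CPM over the other lines), and the transporter gene MFS12 (0.673 ± 0.254 CPM in BM21 and 2.25 to 2.86 CPM over the others). The noncoding lncRNA:CR44535 (3L:2008722-2010751, minus strand) met the rule in another way. It averaged 0.0472 CPM in BM21 and 0.226 CPM in parental testes, and 13.1 to 28.4 CPM in the 6 other translocation lines. Against the parental stock it rests on 3 counts in BM21 and 12 in the parental group, with overlapping libraries (adjusted p = 0.0301). Its adult log2 change was 1.66, the other way, and did not pass (adjusted p = 0.3). The bars for 6 of these genes show the levels in every line.

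**Figure D3:**
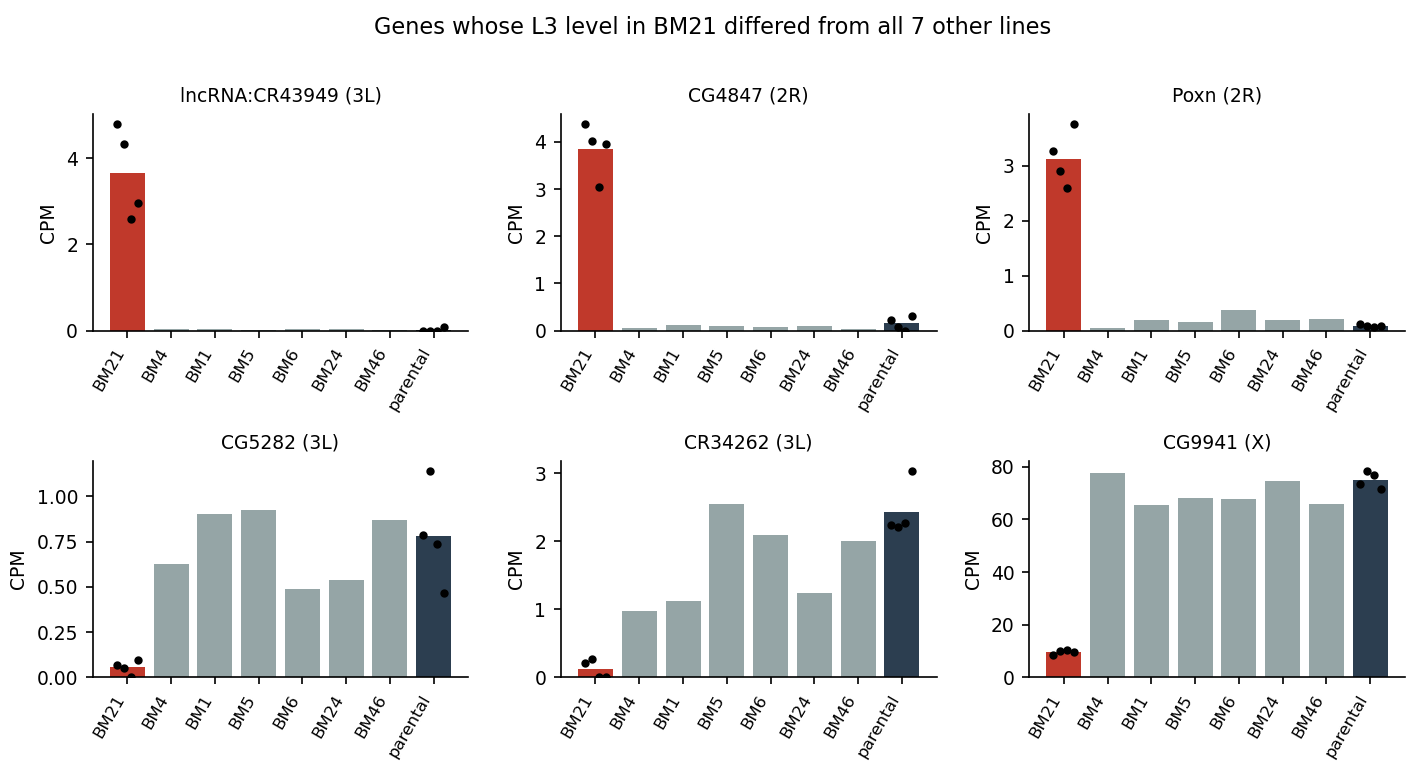
Mean CPM in L3 testes of each line for 3 genes higher and 3 genes lower in BM21 than in all 7 other lines, each panel with its own axis from 0; points are single libraries of BM21 and the parental stock. Poxn stands at 3.13 CPM in BM21 and at 0.369 CPM or less elsewhere, and CG9941 at 9.67 CPM in BM21 and at 65.5 CPM or more elsewhere.

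Gene lists were then read against the overall share of 34.8% called and the median of 0.03. Germline differentiation lists mostly moved little. Of 14 spermatogonial and stem cell genes, 2 rose and 2 fell (median -0.03). The risers were tut (42.8 ± 5.58 CPM in BM21 and 30.6 ± 1.70 CPM in parental testes, log2 change 0.48) and the translational repressor pum (0.25), and the gene that fell most securely was bgcn (-0.27, adjusted p = 0.000243); Tut and Bgcn are partners of Bam, whose own gene did not pass (-0.06, adjusted p = 0.653). Of 13 testis TAF and tMAC genes, 3 rose and 2 fell (median 0.06). The zinc finger gene topi of tMAC had 185, 185, 174 and 181 CPM in BM21, against 115.4, 124, 133 and 126 CPM in parental testes, with no overlap (0.54 ± 0.05, adjusted p = 1.91e-09). Another tMAC subunit gene, mip40, rose by 0.50, and kmg, which blocks promiscuous promoter use in spermatocytes, fell by 0.29. Both topi (0.68) and mip40 (0.95) were also higher in adult BM21 testes (largest adjusted p = 2.19e-05). In L3, mip40 averaged 130.1 CPM in BM21 and 91.7 CPM in parental testes. BM4 averaged 129.7 CPM of it and the sterile lines 101.1 to 144.1 CPM, so mip40 was low in the parental stock alone. For topi, BM4 averaged 146.2 CPM and the sterile lines 141.8 to 157.3 CPM, between the parental (124.6 CPM) and BM21 (181.5 CPM) averages.

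Of 16 meiotic cell cycle and pairing genes, 2 rose and 3 fell (median -0.05). The cohesion gene ord had 102, 98.1, 125 and 114 CPM in BM21, against 164, 155, 161 and 164 CPM in parental testes (-0.55 ± 0.07, adjusted p = 6.17e-08), and all BM21 pools were lower. BM4 averaged 112 CPM of it and the sterile lines 99.4 to 119 CPM, so ord was high in the parental stock alone. Its partner in cohesion, sunn, was higher at 16.1 ± 3.65 CPM in BM21 and 10.02 ± 0.61 CPM in parental testes (0.68, adjusted p = 2.83e-05). The cohesin gene SA-2 (-0.27) and the centromere protector mei-S332 (-0.26) fell, and rux, an inhibitor of cyclin A, rose by 0.27. Genes used later in sperm formation changed little as groups. Counts were 4 higher and 2 lower of 22 spermatocyte-transcribed sperm genes, 2 higher and 1 lower of 16 cup and comet genes, 2 higher and 1 lower of 11 sperm chromatin genes, 1 higher of 8 sperm leucylaminopeptidases, and 2 higher and 2 lower of 14 testis-specific proteasome subunits. With library size as the only scaling, the spermatocyte-transcribed sperm genes gave 3 higher and 5 lower, so the balance of that list depends on the scaling. Among the cup and comet genes was soti, an inhibitor of ubiquitin ligase activity in spermatids, at 979 ± 111 CPM in BM21 and 689 ± 72.9 CPM in parental testes (0.51, adjusted p = 4.98e-05).

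The piRNA pathway split, with 4 genes higher and 9 lower of 28 (median -0.09). The 4 that rose were aub and AGO3, which encode the cytoplasmic Piwi proteins of the ping-pong cycle, nxf2 (0.47, adjusted p = 0.000949), of the nuclear export factor family, and the Tudor domain gene vret (0.16, adjusted p = 0.0323). The Piwi family gene aub had 64.4, 66.1, 50.5 and 57.7 CPM in BM21, against 24.1, 21.1, 28.8 and 22.2 CPM in parental testes (log2 change 1.31 ± 0.10, adjusted p = 4.91e-12). Its partner AGO3 had 55.2, 51.8, 50.1 and 55.9 CPM in BM21, against 21.1, 23.01, 27.6 and 21.2 CPM in parental testes (1.19 ± 0.10, adjusted p = 9.74e-11). Neither gene showed any overlap between the groups, and both were higher in adult BM21 testes too, by 1.09 and 0.96 (largest adjusted p = 1.24e-06). Both were low in the parental stock alone. In L3, aub averaged 57.3 CPM in BM4 and 47.3 to 70.5 CPM over the sterile lines, and AGO3 54.4 CPM and 40.3 to 45.5 CPM. Those that fell included the nuclease gene zuc (4.20 ± 1.30 CPM in BM21 and 7.62 ± 1.25 CPM in parental testes, -0.84), the cluster chromatin genes rhi (-0.57) and cuff (-0.29), the silencing cofactor gene Panx (-0.45) and the helicase gene spn-E (-0.24).

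Of 12 Y-linked genes, 5 rose and none fell (median 0.25). Besides Pp1-Y1, the coiled-coil gene Ppr-Y had 6.88, 5.50, 7.37 and 5.53 CPM in BM21, against 2.25, 1.22, 1.802 and 2.49 CPM in parental testes (1.72 ± 0.25, adjusted p = 1.6e-06). The axonemal dynein heavy chain genes kl-5 (0.33, adjusted p = 0.0342) and kl-2 (0.42, adjusted p = 0.0205) and the gene ORY (0.48, adjusted p = 0.0188) rose by less. The call of kl-2 was lost without BM21 replicate 3, the highest pool (0.26, adjusted p = 0.147), and also without parental replicate 1 or 2. That of ORY was lost without parental replicate 1 (0.39, adjusted p = 0.0743). Of the dosage compensation genes, msl-2 rose by 0.51 (25.7 ± 0.78 CPM in BM21 and 18.1 ± 1.52 CPM in parental testes, adjusted p = 4.39e-07).

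Among somatic lists, 60.0% of the cyst and hub genes were called. Of these 20 cyst and hub genes, 10 rose and 2 fell (median 0.29). The Hedgehog ligand gene hh had 3.20, 2.33, 3.12 and 3.16 CPM in BM21, against 1.01, 0.684, 1.07 and 0.933 CPM in parental testes (1.66 ± 0.23, adjusted p = 1.2e-06), with no overlap. Its receptor gene ptc rose by 0.41 (12.2 ± 0.79 CPM in BM21 and 9.14 ± 0.87 CPM in parental testes), and smo, the signal transducer, fell by 0.29. The transcriptional repressor gene ken had 86.2, 84.2, 114 and 93.0 CPM in BM21, against 64.7, 54.5, 60.9 and 54.2 CPM in parental testes (0.69 ± 0.08, adjusted p = 2.66e-08). The hub adhesion gene Fas3 (0.76), the somatic transcription factor genes Six4 (0.40) and so (0.30) and the JAK-STAT inhibitor gene Socs36E (0.30) rose, while eya, which encodes a partner of So, fell by 0.24.

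Markers of tissues that could adhere to a dissected testis moved as well. Of 9 hemocyte genes tested, 5 rose and 1 fell (median 0.38), and their summed level was 193 to 223 CPM in BM21 and 141 to 155 CPM in parental testes. The collagen IV genes Col4a1 and vkg, which make basement membrane, stood at 74.0 ± 8.39 and 44.2 ± 5.86 CPM in BM21, against 42.2 ± 4.24 and 23.3 ± 3.57 CPM in parental testes (0.81 and 0.92, larger adjusted p = 0.00102). PPO2, a phenoloxidase of crystal cells, rose by 2.58 on the log2 scale and stood at 3.998 ± 0.77 CPM in BM21, against 0.638 ± 0.227 CPM in parental testes. Hml, a clotting protein of plasmatocytes, fell to 18.0 ± 2.06 CPM in BM21, against 25.5 ± 2.75 CPM in parental testes (-0.52, adjusted p = 0.0312). Of 14 muscle genes, 7 rose and 1 fell (median 0.72), though the summed level overlapped at 487 to 659 CPM in BM21 and 506 to 545 CPM in parental testes. Among them Act57B, an actin of larval muscle, rose by 2.49 and the Z-disc gene Zasp52 by 0.86, while bt, which encodes the sarcomere protein projectin, fell by 0.78. Fat body genes gave 4 higher and none lower of 15 (median -0.08), with sums of 292 to 451 CPM in BM21 and 352 to 510 CPM in parental testes. The part that hemocytes, muscle or fat body play in the somatic changes was not tested.

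**Figure D4:**
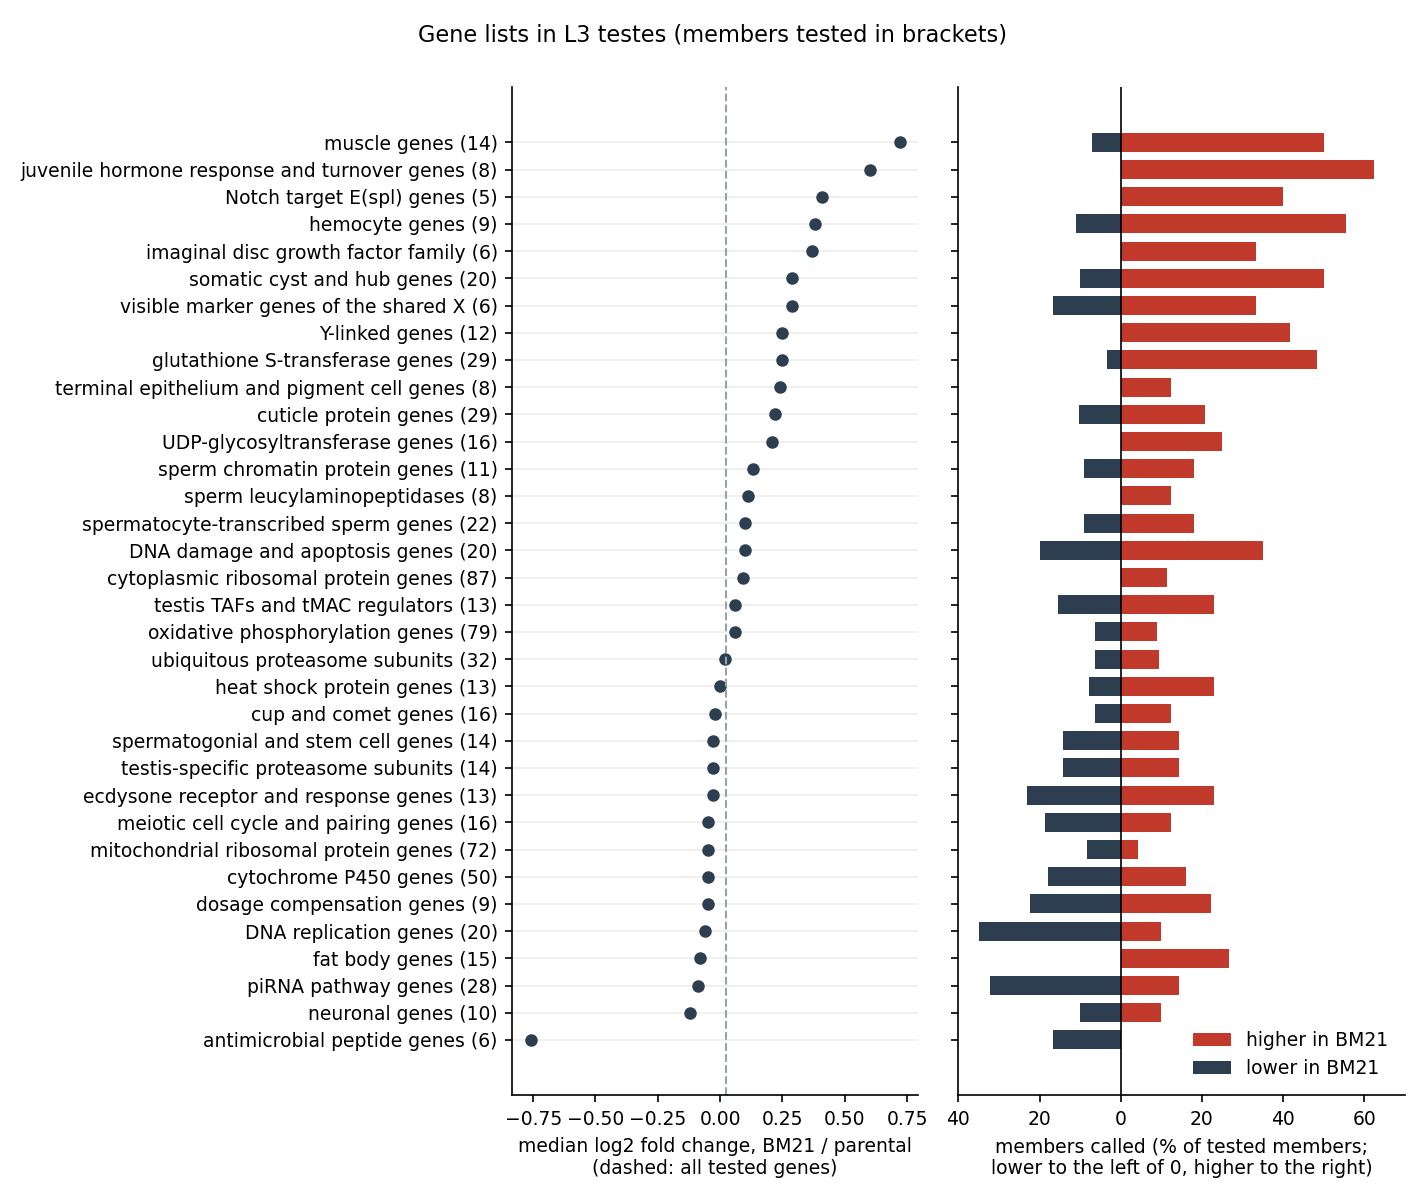
Median log2 fold change of BM21 over parental L3 testes (left panel, dashed line at the median of all tested genes) and the percent of tested members called lower or higher (right panel), for the 34 gene lists with tested members, whose number is in brackets. Muscle (0.72) and juvenile hormone genes (0.60) have the highest medians of the 34 lists and antimicrobial peptide genes (-0.76) the lowest.

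Hormone and detoxification lists differed in their shares of calls, from 62.5% of the juvenile hormone genes and 51.7% of the glutathione S-transferases to 34.0% of the cytochrome P450 genes and 25.0% of the UDP-glycosyltransferases, beside 34.8% of all genes. Of 8 juvenile hormone genes tested, 5 rose and none fell (median 0.60). Jheh2, an epoxide hydrolase that inactivates juvenile hormone, had 69.4, 75.0, 46.9 and 61.7 CPM in BM21, against 32.7, 37.6, 33.5 and 34.8 CPM in parental testes (0.87 ± 0.11, adjusted p = 1.85e-07), without overlap. Its linked paralogs Jheh1 (0.74) and Jheh3 (0.96), the inducible gene JhI-26 (1.05) and the receptor gene gce (0.46) also rose. Ecdysone genes were divided, 3 higher and 3 lower of 13 (median -0.03). Those that rose were the receptor gene EcR (6.34 ± 1.45 CPM in BM21 and 3.18 ± 0.70 CPM in parental testes, 0.95), the response gene Eip78C (1.11) and the repressor gene Blimp-1 (2.34 ± 0.75 CPM in BM21 and 0.490 ± 0.152 CPM in parental testes, 2.24). Those that fell were ftz-f1 (-0.54), Eip63E (-0.35) and Hr39 (-0.19).

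Of 29 glutathione S-transferase genes, 14 rose and 1 fell (median 0.25), and their summed level was 2910 to 3341 CPM in BM21 and 2541 to 2897 CPM in parental testes. GstD5 had 2.64, 3.01, 2.12 and 4.15 CPM in BM21, against 0.112, 0.228, 0.267 and 0.311 CPM in parental testes (3.57 ± 0.34, adjusted p = 7.36e-10), without overlap. In the same family, GstD1 rose by 0.51 on the log2 scale (117 CPM in BM21, against 82.4 CPM in parental testes), and GstE13 was the one to fall (-0.55). Cytochrome P450 genes went both ways, 8 higher and 9 lower of 50 (median -0.05). Those that fell furthest were Cyp316a1 (-2.92), Cyp4e2 (-2.89), Cyp6a20 (-2.48) and Cyp28d1 (-1.61), and those that rose included Cyp4p3 (3.36) and Cyp310a1 (0.90). All 4 called genes of 16 UDP-glycosyltransferases were higher, led in significance by Ugt36D1 (26.1 ± 1.94 CPM in BM21 and 15.6 ± 1.45 CPM in parental testes, 0.74, adjusted p = 9.54e-08).

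Among DNA damage and apoptosis genes, 7 rose and 4 fell of 20 (median 0.10). The effector caspase genes Drice (11.1 ± 0.66 CPM in BM21 and 7.69 ± 0.52 CPM in parental testes, 0.54) and Dcp-1 (0.46), the stress transcription factor gene Xrp1 (0.52), the TNF ligand gene egr (0.68) and p53 (0.25) rose. The initiator caspase gene Dronc (-0.19), the checkpoint kinase gene tefu (-0.38) and the break repair gene rad50 (-0.53) fell, while nbs, whose product binds Rad50, rose by 0.26. DNA replication genes gave 2 higher and 7 lower of 20 (median -0.06), including the origin factors Cdc6 (-0.54), Orc1 (-0.51) and Mcm2 (-0.38) and the ribonucleotide reductase gene RnrS (13.9 ± 1.90 CPM in BM21 and 20.4 ± 0.73 CPM in parental testes, -0.53). PCNA, the replication clamp, rose by 0.28. In large housekeeping groups, the calls were 10 of 87 ribosomal protein genes, all higher (11.5%), 5 of 32 proteasome subunits (15.6%), 12 of 79 oxidative phosphorylation genes (15.2%) and 9 of 72 mitochondrial ribosomal protein genes (12.5%). With library size as the only scaling the ribosomal count was 6, the proteasome subunits gave none higher and 2 lower in place of 3 higher and 2 lower, and the mitochondrial ribosomal protein genes 1 higher and 8 lower in place of 3 higher and 6 lower. Heat shock genes gave 3 higher and 1 lower of 13, with the endoplasmic reticulum chaperone gene Hsc70-3 at 613 ± 60.6 CPM in BM21 and 445 ± 20.1 CPM in parental testes (0.46, adjusted p = 1.04e-07). Of 6 antimicrobial peptide genes, AttB alone was called, at 0.185 ± 0.159 CPM in BM21 and 1.89 ± 0.46 CPM in parental testes (-3.26, adjusted p = 1.17e-05).

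In the remaining lists the share called ran both above and below 34.8%, from 44.4% of the dosage compensation genes and 40% of the E(spl) genes to 31.0% of the cuticle genes and 12.5% of the terminal epithelium genes. The remaining dosage compensation calls were lncRNA:roX1 higher (0.36) and msl-1 and msl-3 lower (-0.27 and -0.19), so that 2 rose and 2 fell of 9. All 3 of these calls were lost without BM21 replicate 4, where the log2 changes were 0.32, -0.21 and -0.14 (adjusted p = 0.0789, 0.0982 and 0.108), and each was also lost without parental replicate 1 and without 1 or 2 other libraries. Of 29 cuticle protein genes 6 rose and 3 fell, of 6 imaginal disc growth factor genes 2 rose, of 5 Notch target genes of the E(spl) cluster 2 rose, of 8 terminal epithelium genes 1 rose, and of 10 neuronal genes 1 rose and 1 fell. The growth factor gene Idgf6 stood at 16.9 ± 1.79 CPM in BM21 and 6.46 ± 0.77 CPM in parental testes (1.39, adjusted p = 3.06e-05), and the cuticle gene Cpr76Bd at 5.31 ± 1.13 CPM in BM21 and 0.446 ± 0.335 CPM in parental testes (3.50, adjusted p = 6.3e-08).

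Both stocks carry the same visible markers on the X, and their genes were read one by one. The pigment transporter gene w had 24.8, 23.6, 22.2 and 24.6 CPM in BM21, against 34.6, 34.1, 31.6 and 31.9 CPM in parental testes, with no overlap (-0.47 ± 0.07, adjusted p = 7.58e-06). The pigmentation gene y had 2.15, 1.53, 2.39 and 1.68 CPM in BM21, against 1.24, 1.22, 1.00 and 1.09 CPM in parental testes (0.78 ± 0.25, adjusted p = 0.0152), a call lost without BM21 replicate 3 (0.66, adjusted p = 0.0569) or parental replicate 3. The tryptophan oxygenase gene v differed by 0.34 (adjusted p = 0.0164), a call lost without parental replicate 2 (adjusted p = 0.0511) or 3. The others did not pass: cv had a log2 change of 0.63 (adjusted p = 0.163), su(w[a]) of 0.09 (adjusted p = 0.33) and f of 0.25 (adjusted p = 0.569), and sc had too few counts to be tested.

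The same lines were read in adult testes, in libraries that the larval comparison did not use. Of the 4206 genes called in L3, 4146 were tested in adults, and 1543 of these (37.2%) were called the same way there, beside 19.6% of all 12713 adult genes called in either direction. These 1543 were 61.8% of the 2495 adult calls, and 22 genes were called the opposite way. The adult fit also held sterile-line libraries with few counts, BM6 replicate 3 (20387) and BM24 replicates 2 and 3 (233047 and 43347). Without the adult libraries under 1000000 counts, 49.4% were called the same way, so the adult calls depend on those libraries. In sign alone, 3635 of the 4146 (87.7%) had the same direction, with Pearson's r of 0.84 between the 2 log2 changes, a description across genes, which are not independent replicates. Among genes past 2-fold in L3, 462 of 745 (62.0%) were called the same way in adults. The share was 146 of 495 (29.5%) on the X, 341 of 834 (40.9%) on 2L and 401 of 937 (42.8%) on 2R. It was 361 of 889 (40.6%) on 3L, close to the share on 2L, 276 of 938 (29.4%) on 3R, 16 of 46 (34.8%) on chromosome 4 and 2 of 7 (28.6%) on the Y.

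**Figure D5:**
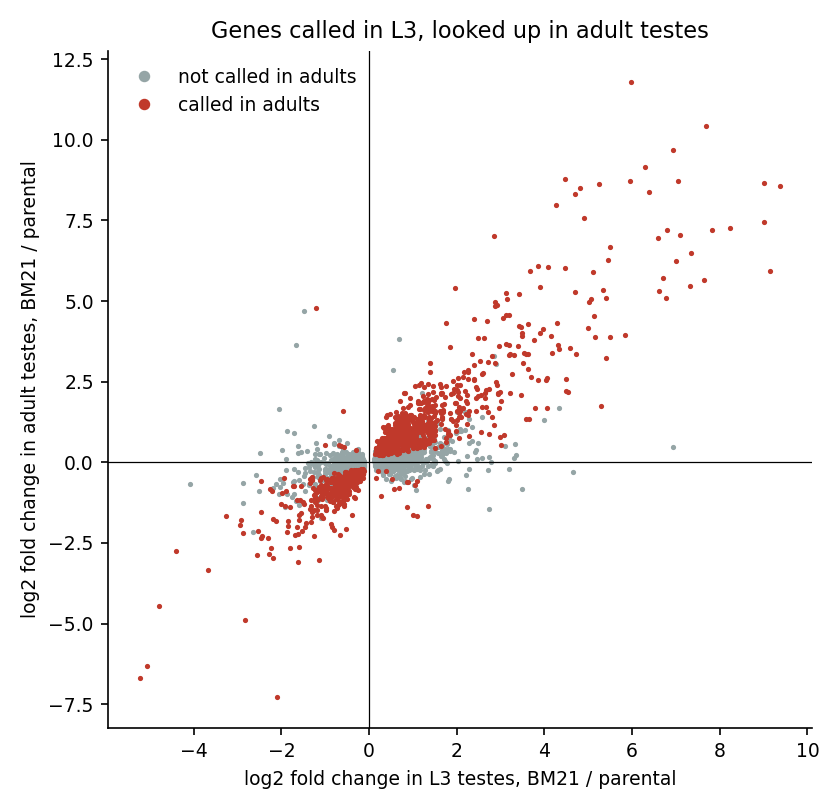
Log2 fold change of BM21 over the parental stock in L3 testes (horizontal axis) and adult testes (vertical axis) for the 4146 genes called in L3 and tested in adults; dark red points were also called in adults. Most points lie in the quadrants where both changes have the same sign (3635 genes).

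Whether a change differed between larval and adult testes was tested directly, as the larval log2 change minus the adult one over the 16 libraries. It did at 437 of 12021 genes (3.64%), 269 with the larger larval value and 168 with the smaller, and 310 of the 437 were among the genes called in L3. The count fell to 276 without L3 parental replicate 2, to 283 without adult BM21 replicate 1 and to 280 without adult parental replicate 2. With DESeq2 it was 552. The clearest case was Liprin-gamma (2R:22333500-22373109, minus strand), of a family of synaptic scaffold proteins. In L3 it had 37.9, 30.8, 35.4 and 37.6 CPM in BM21, against 7.97, 7.60, 7.01 and 7.70 CPM in parental testes (2.23 ± 0.13, adjusted p = 4.53e-15), while in adults it averaged 40.1 CPM in BM21 and 35.2 CPM in the parental stock (0.20, adjusted p = 0.235). The larval parental pools were the low ones, and the difference between stages was 2.02 (adjusted p = 4.27e-08). The tubulin gene alphaTub85E was lower in L3 (16.5 ± 2.32 CPM in BM21 and 39.2 ± 4.02 CPM in parental testes, -1.23) and had a log2 change of 0.27 in adults (adjusted p = 0.118), a stage difference of -1.51 (adjusted p = 2.78e-05). CG9941 was lower at both stages, by -2.95 in L3 and -1.94 in adults, and the stage difference of -1.03 passed as well (adjusted p = 4.62e-05).

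The stage difference was then read for 12 cyst and hub, hemocyte and muscle genes, the 4 called members that the fixed rule took per list. Other members of these lists were not read. Among the 12, Pxn and Mlc2 had L3 log2 changes of 1.14 and 0.68. Picking genes by their L3 call favours a larger change in L3 than in adults. The count that passed is therefore no test of these lists. The stage difference passed for 6 of the 12, beside 310 of the 4206 genes called in L3 and 3.64% of all genes tested. These were hh (1.27, adjusted p = 0.00633), Pxn (1.29, adjusted p = 0.00731), vkg (1.17, adjusted p = 0.0147), Col4a1 (1.11, adjusted p = 0.0139), Zasp52 (1.12, adjusted p = 0.00101) and Act57B (1.87, adjusted p = 0.0474). The adult changes of these 6 did not pass. The stage difference did not pass for the other 6, which were ken (-0.11, adjusted p = 0.794), Fas3 (0.63, adjusted p = 0.115), ptc (0.48, adjusted p = 0.101), PPO2 (1.09, adjusted p = 0.532), Mlc2 (0.82, adjusted p = 0.336) and bt (-0.53, adjusted p = 0.123). It also passed for Xrp1 (0.68, adjusted p = 0.00997), whose adult log2 change was -0.17. For aub (0.21, adjusted p = 0.621), AGO3 (0.24, adjusted p = 0.493), topi (-0.15, adjusted p = 0.428) and ord (0.10, adjusted p = 0.686) the stage difference did not pass. Idgf6 went the other way, with a larger change in adults (2.81) than in L3 (1.39, stage difference -1.44, adjusted p = 0.00501).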

How the data were processed

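Poly(A) RNA of pooled testes (350 ng of total RNA, 50 bp single-end reads, a dUTP protocol that keeps strand) was sequenced in 64 libraries, per the labels' protocols. The authors deposited one count of reads for each gene and library, with no normalization. bcl2fastq 1.8, cutadapt, HISAT2 2.1.0 and featureCounts 1.6.1 were used, per the submitters' processing notes. Neither a genome build nor whether counting used strand is given in the sources used here, so antisense, overlapping and near-identical genes are uncertain. Coordinates are those of the count table, in which 17494 of 17606 genes had the same position in Ensembl BDGP6. Spike-ins were not used here. CPM are counts per 1000000 of a library's counts over the genes that passed the filter, that size scaled by TMM.

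Genes were tested with edgeR 4.0.16 under R 4.3.3, by its quasi-likelihood F test after filterByExpr and TMM scaling, and called at an adjusted p (Benjamini-Hochberg, all tested genes) under 0.05. Contrasts were BM21 over parental, in fits of the 32 L3 or 32 adult libraries. The stage difference used 16 libraries. Every adjusted p not credited otherwise is edgeR's. A fold against a group with no count uses a floor of 3 counts over the group. Arm levels (log2 CPM, prior count 2) were compared by exact permutation over the 8 libraries in Python 3.11.15 with scipy 1.17.1, pandas 2.3.3 and numpy 2.4.6; the R package data.table (version 1.17.8) read the files. Alternatives used DESeq2 1.42.0, limma 3.58.1, other scalings and filters, and left out each library. The tests across genes were also run on simulated counts, with a single fixed spread, few changed genes and no outlying pool. These data differ on each point, so that run checks the code and not the calls made here.

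The members, the gene lists and the rules were chosen with earlier results of these data known. Genes were named by a fixed rule: the 12 largest called changes each way with log2 CPM averaging 1 or more and separate groups, up to 4 called members per list, up to 3 genes in each of the 5 windows, genes without a count in one group and at least 40 in the other, the visible markers, and the 5 smallest p each way for the stage difference. Other genes were named after their values were seen: members of the lists beyond that rule, flanking genes and the genes that set BM21 apart from all 7 other lines. Same-numbered BM21 and parental pools did not all deviate together, and replicate numbers were not used to pair them. None of the 12 pairs of L3 libraries within BM21 or the parental stock was identical. No sequence is printed.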

Additional observations from a re-analysis of the deposited data

Results flagged for a closer look

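Within groups of 4 libraries, one library lay far from the other 3 in 16 of the 317 groups examined; chance alone gives about 1 in 20. BM21 replicate 3 accounted for 5: ORY at 7.70 CPM (others 8.69 to 8.83), kl-2 at 55.5 (37.3 to 38.4), mRpS29 at 59.6 (55.2 to 55.9), Orc5 at 21.4 (22.3 to 22.5) and Eip63E at 94.6 CPM (71.9 to 75.8). BM21 replicate 4 was apart for msl-1 at 19.8 CPM (23.9 to 24.3), bbg at 45.3 (42.9 to 43.0) and lncRNA:CR44750 at 0.593 (1.11 to 1.20). BM21 replicate 2 was apart for hh at 2.33 CPM (3.12 to 3.20) and RpL30 at 228 (200.1 to 205), and BM21 replicate 1 for Jheh3 at 4.03 (4.25 to 4.28). In the parental stock, replicate 1 was apart for RpL15 at 167 CPM (203 to 208) and COX7A at 154 (137 to 138), replicate 2 for Mlc2 at 2.05 (1.34 to 1.40), and replicate 4 for v at 12.4 CPM (10.1 to 10.4) and for the arm level of 2L at 0.082 (0.064 to 0.067).

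The BM21 change differed between larval and adult testes, by edgeR's test of the difference itself, most clearly for 10 genes. The larval minus the adult log2 change was positive for Liprin-gamma (2.02, adjusted p = 4.27e-08), CG42268 (0.97, 2.99e-05), Cyp4p3 (3.12, 4.62e-05), CG34283 (1.58, 6.54e-05) and CG14069 (3.40, 6.86e-05). It was negative for alphaTub85E (-1.51, adjusted p = 2.78e-05), CG4480 (-1.07, 2.78e-05), CG9941 (-1.03, 4.62e-05), Obp56a (-2.18, 5.18e-05) and asRNA:CR43433 (-1.38, 6.54e-05). Of these, Obp56a fell in L3 (-0.60, a call lost without BM21 replicate 3, at -0.48 with an adjusted p of 0.0833, or without parental replicate 2 or 3) and rose in adults (1.58), and CG34283 fell at both stages, by -0.67 in L3 and -2.25 in adults. The causes were not tested.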

How the results depend on the processing

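The 4206 genes called in L3 became 3189 in a fit of the 8 libraries alone, 4154 with DESeq2, 4075 with limma voom, 4214 with DESeq2 size factors, 4130 with library size scaling, 4120 without a filter, 3977 with a filter of 1 CPM and 3573 to 4305 when each library was left out. The share of calls that were higher, 55%, ranged from 50.8% to 56.1%. With the replicate number as a block, 4100 were called; the correlations of same-numbered pools were -0.24, 0.242, 0.117 and 0.214. The 35 genes apart from all other lines were 34 to 41 (chosen after seeing the data), and the adult share of 37.2% was 30.7% to 49.4%. The highest adult share came without the adult libraries under 1000000 counts. The 437 stage differences were 552 with DESeq2, 371 with library size scaling and 373 with the replicate number as a block. They were 276 to 416 when each of 16 libraries was left out. Of the arm levels, taking the median over genes gave 0.0205 for the X and 0.0163 for 2L, both reversed in sign. It gave -0.0186 for 2R, 0.653 for chromosome 4 and 0.628 for the Y. None passed, though the exact permutation p for chromosome 4 and the Y was the smallest possible, 0.0286. Keeping genes of at least 3 log2 CPM gave 0.059 for the X, also reversed and passing, and 0.157 for the Y. Pairing the pools by number (replicate block, sign flips, smallest p 0.125) gave -0.0558 for 2L, -0.0497 for 2R, 0.251 for chromosome 4 and 0.272 for the Y, none able to pass. Leaving out each library gave 0.221 to 0.297 for chromosome 4, where the calls without each BM21 library were lost (0.231 to 0.268), and 0.202 to 0.310 for the Y, lost without parental replicate 2 (0.245). The highest window share, 53%, was 52.9% with 2 Mb windows.

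Among 173 named genes, 2628 of 2751 values kept direction and call and 123 lost the call, over 31 genes; none reversed. Of the genes with values above, these are msl-1, msl-3, lncRNA:roX1, RpL15, Obp56a, y, v, kl-2 and ORY. Genes named beyond the fixed rule, such as kl-5 and vret, are not among the 173, and their calls were not followed here. The causes were not tested. Genes under about 1 CPM rest on few reads, and depth there limits what a missing call can show. Line and plate row cannot be told apart.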
